A study of Mus musculus with 8 samples.

Results

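The insulin-like growth factor family was described here through its 2 ligands, its 2 receptors and 6 of its binding proteins, in the prostate of MT transgenic and wild-type mice. Members were every probe set annotated to exactly one of the genes Igf1, Igf2, Igf1r, Igf2r, Igfbp2, Igfbp3, Igfbp4, Igfbp5, Igfbp6 and Igfbp7, and there were 23 of them among 22626 probe sets tested. All 10 genes, of 12393 on the array, had at least 1 probe set. The first group is 4 arrays of ventral prostate RNA from males that carry polyoma virus middle T antigen as a transgene, called MT here, and the second is 4 arrays from wild-type males. All mice were FVB and 8 weeks old, and the tissue was the same. The design sets the cancer that MT expression induces against normal prostate. Neither the promoter of the transgene nor its founder line is named in the labels. They also do not say that each array had its own animal, so the p-values rest on a spread between samples that may be only technical. Whole tissue was profiled, and in such samples fewer cells of a type and less RNA per cell cannot be told apart.

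Insulin-like growth factors are small secreted hormones related to insulin, made both in the liver and locally in tissue stroma. Igf1 and Igf2 act through the tyrosine kinase receptor encoded by Igf1r, while Igf2r, the cation-independent mannose 6-phosphate receptor, has no kinase and takes Igf2 up for degradation in lysosomes. A family of secreted binding proteins holds the ligands in blood and in the matrix, and proteases release them. In the prostate the stroma is known as a source of ligand for the neighbouring epithelium.

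Levels are log2 values after RMA (robust multi-array averaging), so a difference of 1 is a 2-fold change, and all differences are MT minus wild type with the standard error of a limma fit. A probe set passed the threshold at a Benjamini-Hochberg adjusted p under 0.05 over all 22626 probe sets. Array medians lay between 6.21 and 6.23. Arrays correlated across probe sets at 0.996 to 0.997 within MT, 0.992 to 0.994 within wild type and 0.968 to 0.973 between the groups. Of the labelled tissue's secretory markers, Spink1, a secreted trypsin inhibitor, averaged 10.77 in MT and 13.81 in wild type, and Msmb, a secreted prostate protein, averaged 11.48 in MT and 13.57 in wild type. The 3' minus 5' log2 difference of the Gapdh controls, which reflects RNA integrity, ran from 0.45 to 0.64 in MT and from 0.54 to 0.92 in wild type.

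The family was lower in MT wherever it changed. Of the 23 probe sets, 11 were lower in MT, against a background of 19.7% of all probe sets, and 0 were higher, against 18.1%, so that 11 changed in either direction, against 37.8%. No member probe set was higher at an unadjusted p under 0.05 in limma either (0 of 23). The 11 probe sets belonged to 5 genes, namely Igf1, Igf1r, Igfbp2, Igfbp4 and Igfbp6. At 1 probe set a gene, 5 of 10 were lower, against 20.7% of 12393 genes, and 0 higher, against 19.3%. The other 5 genes, Igf2, Igf2r, Igfbp3, Igfbp5 and Igfbp7, had no probe set past the threshold. The median log2 difference was -0.47 over the 23 probe sets and -0.01 over all probe sets. The 4 MT values lay wholly below the 4 wild-type values for 10 of the 23, against 19.4% of all probe sets. The fall was at least 2-fold and past the threshold for 4 of the 23, against 1.97% of all.

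**Figure D1:**
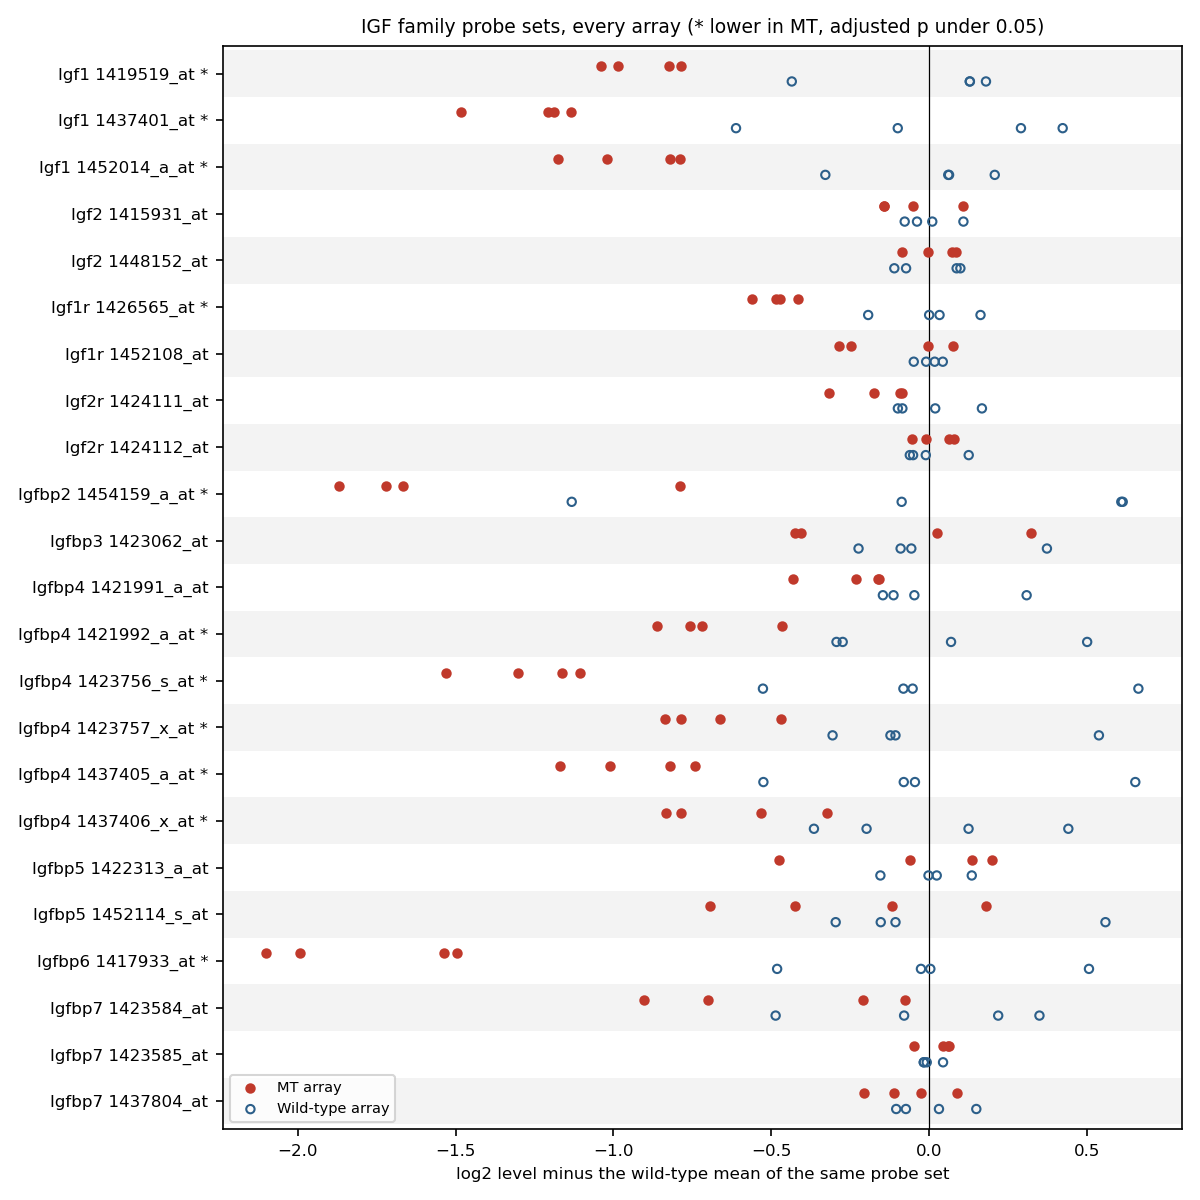
Each array's log2 level minus the wild-type mean of the same probe set, for all 23 probe sets of the family, with MT arrays as filled red points above wild-type arrays as open blue points. An asterisk marks the 11 probe sets that passed. The 4 MT points of Igfbp6 lie far left of its wild-type points, and those of Igf2 and Igf2r mix with the wild-type points.

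Igf1, the ligand that mediates much of the growth effect of growth hormone, was lower in MT on all 3 of its probe sets. Probe set 1419519_at read 7.01, 7.17, 7.21 and 6.96 in MT, against 8.18, 7.56, 8.13 and 8.13 in wild type. The groups did not overlap, and wild-type array 2 stood below the other wild-type arrays. The log2 difference was -0.91 ± 0.13 (adjusted p = 0.000227), which put MT at 53.2% of the wild-type level (95% interval 43.7% to 64.9%).

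The remaining Igf1 probe sets gave like values. Probe set 1437401_at read 5.78, 6.07, 6.05 and 6.12 in MT, against 7.16, 6.65, 7.55 and 7.68 in wild type, a difference of -1.25 ± 0.19 (adjusted p = 0.000349). Probe set 1452014_a_at read 5.97, 6.32, 6.35 and 6.12 in MT, against 7.20, 6.81, 7.21 and 7.35 in wild type, and differed by -0.95 ± 0.12 (adjusted p = 0.000105). On each of the 3 probe sets the lowest wild-type value was that of array 2, and it still lay above every MT value.

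Igf2, the ligand that is active above all in fetal growth and is expressed from the paternal allele, did not pass. Probe set 1448152_at read 6.004, 5.92, 6.08 and 6.09 in MT, against 6.09, 5.93, 6.10 and 5.90 in wild type. The groups overlapped fully, with a difference of 0.02 ± 0.07 (adjusted p = 0.884) and a 95% interval from -0.15 to 0.18. Probe set 1415931_at was dim, at 3.67, 3.67, 3.92 and 3.76 in MT, against 3.92, 3.73, 3.82 and 3.77 in wild type (-0.06 ± 0.08, adjusted p = 0.599). Control probe sets for bacterial transcripts, which mark the background, reached 3.52 to 3.90 on the same arrays, so this probe set says little about Igf2. The difference of Igf1 less that of Igf2 was -0.93, given as a description without a test, since the pair was chosen after its values were seen.

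Igf1r, the receptor kinase that both ligands use, was lower on the brighter of its 2 probe sets. Probe set 1426565_at read 7.16, 7.09, 7.01 and 7.10 in MT, against 7.74, 7.61, 7.38 and 7.57 in wild type. The groups were separate, and the difference was -0.48 ± 0.08 (adjusted p = 0.000697), so that MT stood at 71.5% of wild type (95% interval 63.2% to 80.9%). Probe set 1452108_at, at 4.80, 4.47, 4.72 and 4.44 in MT, against 4.74, 4.71, 4.76 and 4.67 in wild type, differed by -0.12 ± 0.09 (adjusted p = 0.338). Averaged over both probe sets the difference of Igf1r was -0.30 (adjusted p = 0.00369).

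Igf2r, the scavenging receptor, did not pass on either probe set. Probe set 1424112_at read 10.20, 10.22, 10.09 and 10.13 in MT, against 10.27, 10.13, 10.08 and 10.09 in wild type. Those values interleaved, with a difference of 0.02 ± 0.07 (adjusted p = 0.863) and a 95% interval from -0.13 to 0.17. Probe set 1424111_at read 8.60, 8.37, 8.52 and 8.60 in MT, against 8.71, 8.59, 8.86 and 8.61 in wild type, and differed by -0.17 ± 0.08 (adjusted p = 0.135). The difference of Igf1r less that of Igf2r was -0.50, likewise without a test.

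Among the binding proteins, Igfbp6 had the largest difference of the family. Its protein prefers Igf2 over Igf1 as a ligand. Its only probe set, 1417933_at, read 6.84, 6.94, 7.40 and 7.44 in MT, against 8.91, 8.45, 8.94 and 9.44 in wild type. The highest MT array lay a full log2 unit below the lowest wild-type array. The difference was -1.78 ± 0.20 (adjusted p = 3.5e-05), with MT at 29.1% of the wild-type level (95% interval 21.6% to 39.3%).

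Igfbp2 followed in size but was far more variable. Its protein carries an integrin-binding motif and is found raised in the serum of men with prostate cancer. Its only probe set, 1454159_a_at, read 7.94, 7.79, 7.99 and 8.87 in MT, against 10.27, 8.53, 9.57 and 10.27 in wild type. MT array 4 was higher than wild-type array 2, so the groups overlapped. The difference was -1.51 ± 0.36 (adjusted p = 0.00633), or 35.1% of the wild-type level (95% interval 20.3% to 60.7%). With both wild-type array 4 and MT array 2 left out it was -1.19 (adjusted p = 0.0504), past the threshold no longer.

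Igfbp4, whose protein mostly restrains ligand action and is cleaved by the protease PAPP-A, was lower on 5 of its 6 probe sets. The brightest, 1437405_a_at, read 8.38, 8.54, 8.81 and 8.73 in MT, against 9.51, 9.03, 9.47 and 10.20 in wild type, a difference of -0.94 ± 0.20 (adjusted p = 0.00354). The largest difference was that of 1423756_s_at, at -1.28 ± 0.20 (adjusted p = 0.000494), with 7.17, 7.40, 7.59 and 7.53 in MT, against 8.65, 8.17, 8.62 and 9.36 in wild type. On both of these the groups were separate, and wild-type array 4 was the highest of its group. The third, 1421992_a_at, read 6.24, 6.14, 6.53 and 6.28 in MT, against 6.70, 6.72, 7.07 and 7.50 in wild type (-0.70 ± 0.16, adjusted p = 0.00518). Probe set 1423757_x_at read 7.57, 7.62, 7.94 and 7.75 in MT, against 8.29, 8.10, 8.30 and 8.95 in wild type (-0.69 ± 0.16, adjusted p = 0.00545). Groups were separate on these too, whereas on 1437406_x_at MT array 3 lay above wild-type array 2. That probe set read 8.06, 8.02, 8.53 and 8.32 in MT, against 8.97, 8.48, 8.65 and 9.29 in wild type (-0.62 ± 0.17, adjusted p = 0.013). The smallest difference, that of 1421991_a_at (-0.25 ± 0.11, adjusted p = 0.0924), did not pass. Its values, 6.15, 6.35, 6.43 and 6.42 in MT, against 6.54, 6.47, 6.44 and 6.89 in wild type, nevertheless did not overlap. Probe sets whose names end in _s_at or _x_at may also bind other transcripts, and 3 of the 6 for Igfbp4 are of these types.

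Igfbp3, Igfbp5 and Igfbp7 did not pass on any of their probe sets. Igfbp3, the main carrier of the ligands in serum, read 4.93, 4.91, 5.36 and 5.66 in MT, against 5.71, 5.24, 5.28 and 5.11 in wild type on probe set 1423062_at. The groups overlapped, with a difference of -0.12 ± 0.17 (adjusted p = 0.631, 95% interval -0.50 to 0.26). That interval is too wide to exclude a fall as large as that of Igf1r. Igfbp5, a matrix-bound member that rises in the rat prostate after castration, read 9.87, 10.14, 10.45 and 10.75 in MT on probe set 1452114_s_at, against 11.13, 10.41, 10.27 and 10.46 in wild type. The difference was -0.26 ± 0.21 (adjusted p = 0.354, 95% interval -0.72 to 0.19), and MT array 4 was above 3 of the wild-type arrays. Without wild-type array 1, the highest, it was -0.078 (adjusted p = 0.769). Its second probe set, 1422313_a_at, read 7.64, 7.23, 7.84 and 7.90 in MT, against 7.83, 7.72, 7.70 and 7.55 in wild type (-0.05 ± 0.13, adjusted p = 0.802).

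Igfbp7, a low-affinity relative that is abundant in vessel walls and smooth muscle, had 1 bright probe set out of 3. Probe set 1423584_at read 8.74, 8.95, 9.57 and 9.44 in MT, against 9.86, 9.16, 9.57 and 9.995 in wild type. MT arrays 3 and 4 lay among the wild-type values, and MT arrays 1 and 2 below them all. The difference was -0.47 ± 0.21 (adjusted p = 0.0979). It passed without MT array 3 (-0.60, adjusted p = 0.0496) and without wild-type array 2 (-0.64, adjusted p = 0.0227), but in none of the other 16 alternatives, whose adjusted p reached 0.408. Averaged over the 3 probe sets of Igfbp7 the difference was -0.17 (adjusted p = 0.119). The dimmer probe sets of Igfbp7 overlapped between groups. Probe set 1423585_at read 4.68, 4.68, 4.66 and 4.57 in MT, against 4.61, 4.60, 4.60 and 4.66 in wild type (0.03 ± 0.06, adjusted p = 0.748). Probe set 1437804_at read 5.99, 6.29, 6.17 and 6.09 in MT, against 6.23, 6.35, 6.13 and 6.09 in wild type (-0.07 ± 0.08, adjusted p = 0.589).

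Igfbp2 and Igfbp5 are neighbours on mouse chromosome 1, and face each other tail to tail in the RefSeq annotation, with starts 50.4 kilobases apart. The difference of Igfbp2 less that of Igfbp5 was -1.25, given without a test, since this pair too was chosen after values were seen. It does not show that the changes of the neighbours differ. Their promoters are printed beside that of Igfbp6, the member with the largest fall. Igfbp2 has 2 windows, and the one printed is that outside its gene span. Each is the 250 bases before the RefSeq start on the gene's strand, build GRCm38.p6, and all 10 members had at least 1 window in that table. Igfbp6 lies at chr15:102143936-102144185 on the plus strand, Igfbp2 at chr1:72824230-72824479 on the plus strand and Igfbp5 at chr1:72874866-72875115 on the minus strand. Capitals mark matches on either strand to any of 5 motifs, none of which overlapped another, namely the TATA box TATAAA, the GC box GGGCGG, the STAT site TTCNNNGAA, the forkhead site GTAAACA and the AP-1 site TGANTCA.
Igfbp6: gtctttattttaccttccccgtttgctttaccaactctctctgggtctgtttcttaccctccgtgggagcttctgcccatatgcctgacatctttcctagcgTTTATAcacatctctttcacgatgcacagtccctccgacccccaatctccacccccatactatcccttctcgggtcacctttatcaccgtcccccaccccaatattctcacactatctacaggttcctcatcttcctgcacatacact
Igfbp2: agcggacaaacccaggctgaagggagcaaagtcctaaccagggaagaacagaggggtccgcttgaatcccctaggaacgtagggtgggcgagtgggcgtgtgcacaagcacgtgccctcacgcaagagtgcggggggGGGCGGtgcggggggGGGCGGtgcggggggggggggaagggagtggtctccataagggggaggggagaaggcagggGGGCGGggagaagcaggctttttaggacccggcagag
Igfbp5: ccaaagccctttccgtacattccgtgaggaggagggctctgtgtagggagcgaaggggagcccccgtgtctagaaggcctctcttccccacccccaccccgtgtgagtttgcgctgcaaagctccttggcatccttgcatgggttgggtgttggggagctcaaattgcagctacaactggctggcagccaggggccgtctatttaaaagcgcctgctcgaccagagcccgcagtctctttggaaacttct
The Igfbp6 window is the poorest of the 3 in G and C, at 49.6%, against 67.2% for the printed Igfbp2 window and 58.8% for Igfbp5. The second Igfbp2 window, inside the gene span, holds 56.4%, no GC box match and 1 AP-1 match. The Igfbp6 window holds 1 TATA box match on the opposite strand, beginning 148 bases before the start. The printed Igfbp2 window holds 3 GC box matches, beginning 113, 98 and 37 bases before the start, and the Igfbp5 window holds no match to the 5 motifs. Of 32851 promoter windows of this length, 12.4% hold the TATA box letters and 32.7% the GC box letters. These are matches of letters only, and nothing about binding was measured.

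The same arrays tended to be low or high at the members that fell. Of the 11 probe sets lower in MT, wild-type array 2 was the lowest of its group on 9 and wild-type array 4 the highest on 9, and MT array 1 or 2 was the lowest of its group on 9. These probe sets belong to only 5 genes, so the counts partly repeat the same transcripts. No share over all probe sets is set beside them. Smooth muscle and fibroblast markers were summed on the same arrays. The summed level of 10 measured smooth muscle genes, as the log2 of the sum, was 12.65, 12.33, 13.03 and 13.21 in MT, against 14.16, 13.47, 13.80 and 13.99 in wild type. That of 13 fibroblast genes was 12.09, 12.12, 12.45 and 12.63 in MT, against 13.17, 12.76, 13.20 and 13.31 in wild type. On both lists wild-type array 2 was the lowest of its group, and MT arrays 1 and 2 were the lowest of theirs. Wild-type array 4 was the highest of its group on the fibroblast list, but on the smooth muscle list array 1 was. Array 4 was also the highest wild-type array on the adipocyte, macrophage, endothelial and skeletal muscle lists, but not on the other lists. The adipocyte list read 8.02, 9.38, 9.99 and 11.17 in wild type, where array 1 was the lowest, against 7.31, 8.77, 7.42 and 7.19 in MT.

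**Figure D2:**
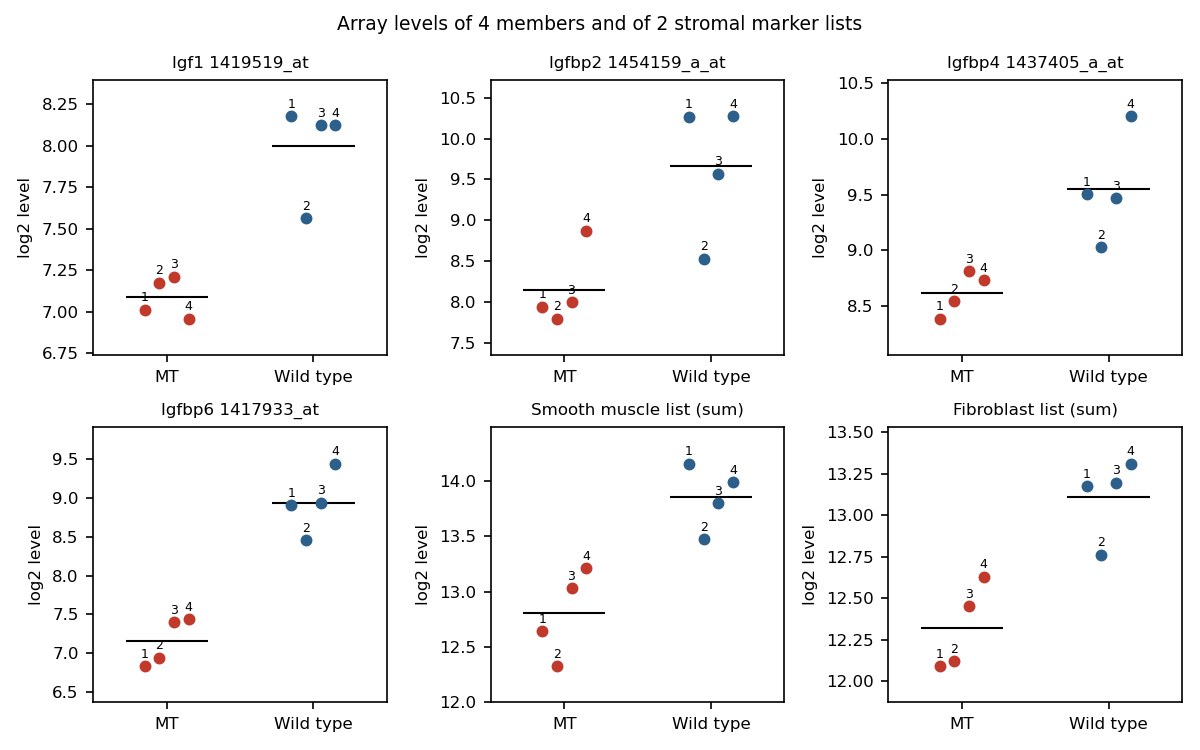
Log2 levels on each array for Igf1, Igfbp2, Igfbp4 and Igfbp6 and for the summed smooth muscle and fibroblast lists, with MT left of wild type, digits for array numbers and lines for group means. Wild-type array 2 is the lowest wild-type array in all 6 panels, and the groups overlap only for Igfbp2.

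These stromal genes were lower in MT as a group. All 10 smooth muscle genes fell, with a median of -1.04, among them Acta2 (-0.99 ± 0.19, adjusted p = 0.00202) and Tagln (-1.07 ± 0.17, adjusted p = 0.000513), which encode contractile proteins. Of 13 fibroblast genes 10 fell and 1, Mgp, rose, with a median of -0.92. The matrix proteoglycan gene Dcn differed by -1.28 ± 0.09 (adjusted p = 1.21e-06) and the collagen gene Col3a1 by -0.92 ± 0.17 (adjusted p = 0.00145). No gene of either list lay at the bacterial controls on all arrays. Luminal epithelial genes ran the other way, with 9 of 9 higher and a median of 0.82. Of all 12393 genes, at 1 probe set each, 20.7% were lower and 19.3% higher. Of the other cell types, 5 of 10 macrophage genes were higher and 1, Mrc1, lower. Of 10 endothelial genes 2 were lower, near the share of all genes. Of 4 adipocyte genes 4 were lower, with summed adipocyte levels from 7.19 to 8.77 in MT and from 8.02 to 11.17 in wild type. Of 7 basal epithelial genes 4 were lower, of 5 secretory genes 4 were lower and 1, Hoxb13, higher, of 6 skeletal muscle genes 1, Acta1, was lower, and of 6 seminal vesicle genes none passed, their summed level running from 6.26 to 6.48 in MT and from 6.31 to 6.49 in wild type. Mgp, Mrc1, Hoxb13 and Acta1 are named because each was the single exception of its list, chosen after values were seen. The part of cell make-up in the falls of the family was not tested.

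The members were also set against the stromal lists on the same array, by subtracting the list's mean log2 level from that of the gene's brightest probe set. The smooth muscle mean differed by -1.01 and the fibroblast mean by -0.80, so by arithmetic a gene that did not change comes out higher in MT by that much. Igf1 less the fibroblast list was -0.40, -0.33, -0.54 and -0.93 in MT, against -0.33, -0.48, -0.37 and -0.60 in wild type. These values, from probe set 1419519_at, overlapped, and the group means differed by -0.11. Of the Igf1 probe sets it had the smallest fall. Igfbp4 1437405_a_at likewise overlapped on both lists, its group means differing by -0.13 less fibroblast and by 0.08 less smooth muscle. These overlaps hold for the brightest probe sets only. The other Igf1 probe sets fell further, by up to -1.25 before subtraction. So did Igfbp4 1423756_s_at, at -1.28, while the remaining Igfbp4 probe sets fell less than the brightest. None of these was set against the lists, so a separation there is not excluded.

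Igfbp6 stayed lower in MT after the subtraction. Less the fibroblast list it was -0.57, -0.56, -0.35 and -0.44 in MT, against 0.41, 0.41, 0.45 and 0.72 in wild type, a difference of -0.98 between groups that did not overlap. Less the smooth muscle list the difference was -0.77, again without overlap. Single genes differed by -2.11 to 0.91 on the fibroblast list and by -1.24 to -0.64 on the smooth muscle list. The -1.78 of Igfbp6 lay within the first range and below the second. Igfbp2 overlapped on both lists, with differences of -0.71 less fibroblast and -0.50 less smooth muscle.

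Igf1r overlapped on both lists. For the 5 members that had not passed the subtraction mostly returns the fall of the list, and nothing is read from it. Such a subtraction shows unequal change within arrays, not the level per cell.

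**Figure D3:**
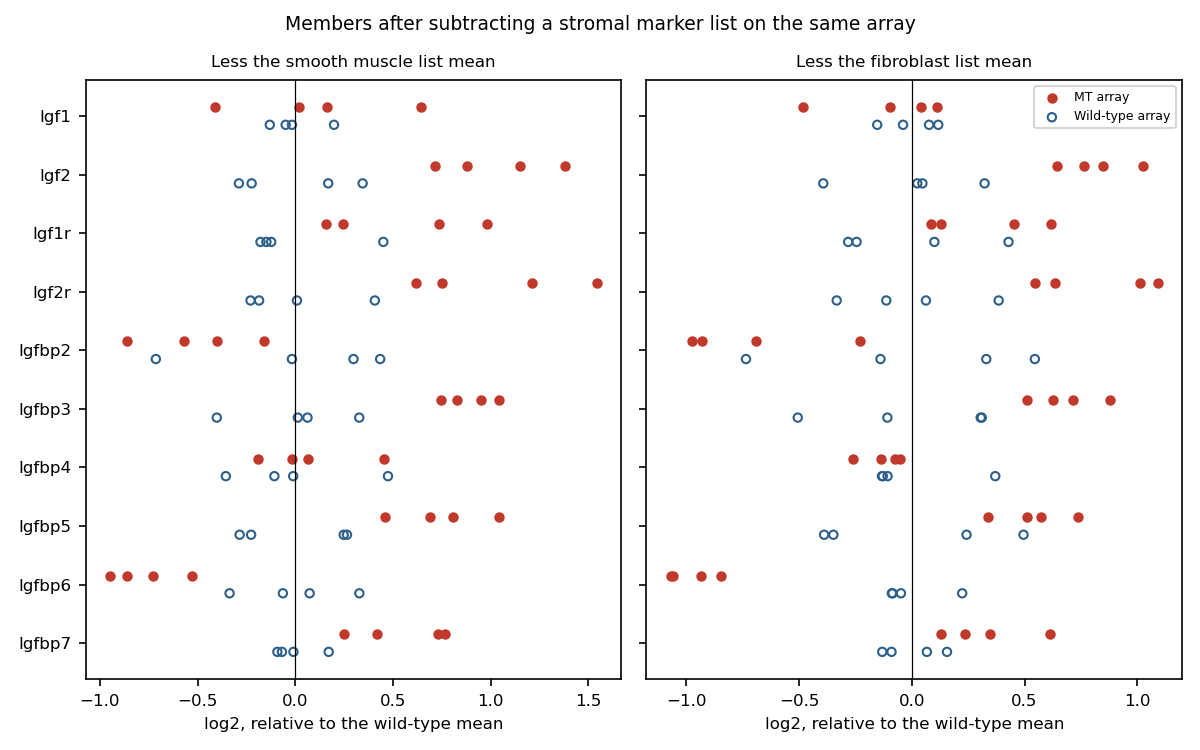
Log2 level of each gene's brightest probe set less the mean log2 level of the smooth muscle list (left) or the fibroblast list (right) on the same array, relative to the wild-type mean of that quantity. MT arrays are filled red points above open blue wild-type points. MT lies below wild type for Igfbp6 in both panels, and Igf1 and Igfbp4 overlap.

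Other genes of the pathway were taken from a list of 37, of which 34 were measured, 1 probe set for each. In MT 10 were lower and 2 higher, against 20.7% and 19.3% of 12393 genes, and the median difference was -0.01, that of all genes also being -0.01.

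Of 8 receptor and adaptor genes 2 were lower in MT. Irs1, the docking protein that the activated receptor phosphorylates, read 8.53, 8.63, 8.58 and 8.69 in MT, against 9.06, 9.06, 8.90 and 8.92 in wild type. The groups were separate by a narrow margin, with a difference of -0.38 ± 0.07 (adjusted p = 0.00119). Grb10, an imprinted adaptor that restrains the receptor, differed by -0.51 ± 0.12 (adjusted p = 0.00614), or by -0.24 averaged over its probe sets. The insulin receptor Insr differed by 0.01 ± 0.08 (adjusted p = 0.915) and Shc1, an adaptor to the Ras pathway that middle T also engages, by 0.17 ± 0.07 (adjusted p = 0.091). Shc1 passed without wild-type array 2 (0.23, adjusted p = 0.0223).

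In the growth hormone axis 2 of 5 genes were lower, and both were transcription factors that in liver carry the hormone's signal to Igf1. Stat5b read 6.57, 6.31, 6.37 and 6.39 in MT, against 7.004, 7.001, 6.96 and 7.06 in wild type, a difference of -0.59 ± 0.07 (adjusted p = 5.92e-05). Stat5a differed by -0.61 ± 0.17 (adjusted p = 0.0152). Averaged over its probe sets Stat5b differed by -0.34 (adjusted p = 0.000584). The growth hormone receptor Ghr differed by 0.03 ± 0.08 (adjusted p = 0.77), with a 95% interval from -0.13 to 0.20.

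Of 10 measured proteases of the binding proteins and their inhibitors, 4 were lower and 1 higher. Stc2, a stanniocalcin that inhibits PAPP-A, read 6.98, 6.96, 6.82 and 6.80 in MT, against 7.91, 8.15, 7.56 and 7.90 in wild type. The groups were far apart, with a difference of -0.99 ± 0.11 (adjusted p = 4.01e-05), and its relative Stc1 differed by -0.64 ± 0.11 (adjusted p = 0.00106), or by -0.28 averaged over its probe sets. That average includes Stc1 1421984_at, which lay at or below the bacterial controls on 8 of 8 arrays. Pappa itself, which encodes PAPP-A, differed by -0.08 ± 0.09 (adjusted p = 0.552). The metalloprotease gene Adam28, whose human product cleaves IGFBP3, fell by 1.05 ± 0.11 on the log2 scale (adjusted p = 2.3e-05), with -0.52 averaged over its probe sets. The dimmer Adam28 probe set, 1452495_at, averaged 3.66 in MT and 3.65 in wild type, at or below the bacterial controls on 3 arrays. Htra1, a serine protease that has an IGFBP-like domain, differed by -0.62 ± 0.17 (adjusted p = 0.0121). Ctsd, the lysosomal protease cathepsin D, rose by 0.49 ± 0.08 (adjusted p = 0.000524).

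Plagl1 had the largest difference on the list. It encodes an imprinted zinc finger factor that belongs, like Igf2, to a network of imprinted growth genes. It read 8.41, 8.64, 8.45 and 8.56 in MT, against 6.72, 6.63, 6.74 and 6.68 in wild type, a difference of 1.82 ± 0.07 (adjusted p = 1.72e-08). That probe set, 1426208_x_at, may bind other transcripts too. The second one, 1450533_a_at, was 0.35 ± 0.08 higher (adjusted p = 0.00501), and the mean over both was 1.08 higher.

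Of 8 genes for other proteins with the amino-terminal domain of the binding proteins, 2 were lower. Kazald1, a secreted protein of bone and other tissues, read 4.79, 4.47, 4.35 and 4.39 in MT, against 5.62, 5.34, 5.78 and 5.44 in wild type, a difference of -1.05 ± 0.12 (adjusted p = 3.67e-05). Ccn2, connective tissue growth factor, read 8.43, 8.27, 8.47 and 8.46 in MT, against 9.26, 8.23, 9.33 and 9.51 in wild type. Wild-type array 2 lay below all MT arrays. The difference was -0.68 ± 0.22 (adjusted p = 0.0346), and without any 1 array other than wild-type array 2 it no longer passed (adjusted p from 0.0620 to 0.0918).

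**Figure D4:**
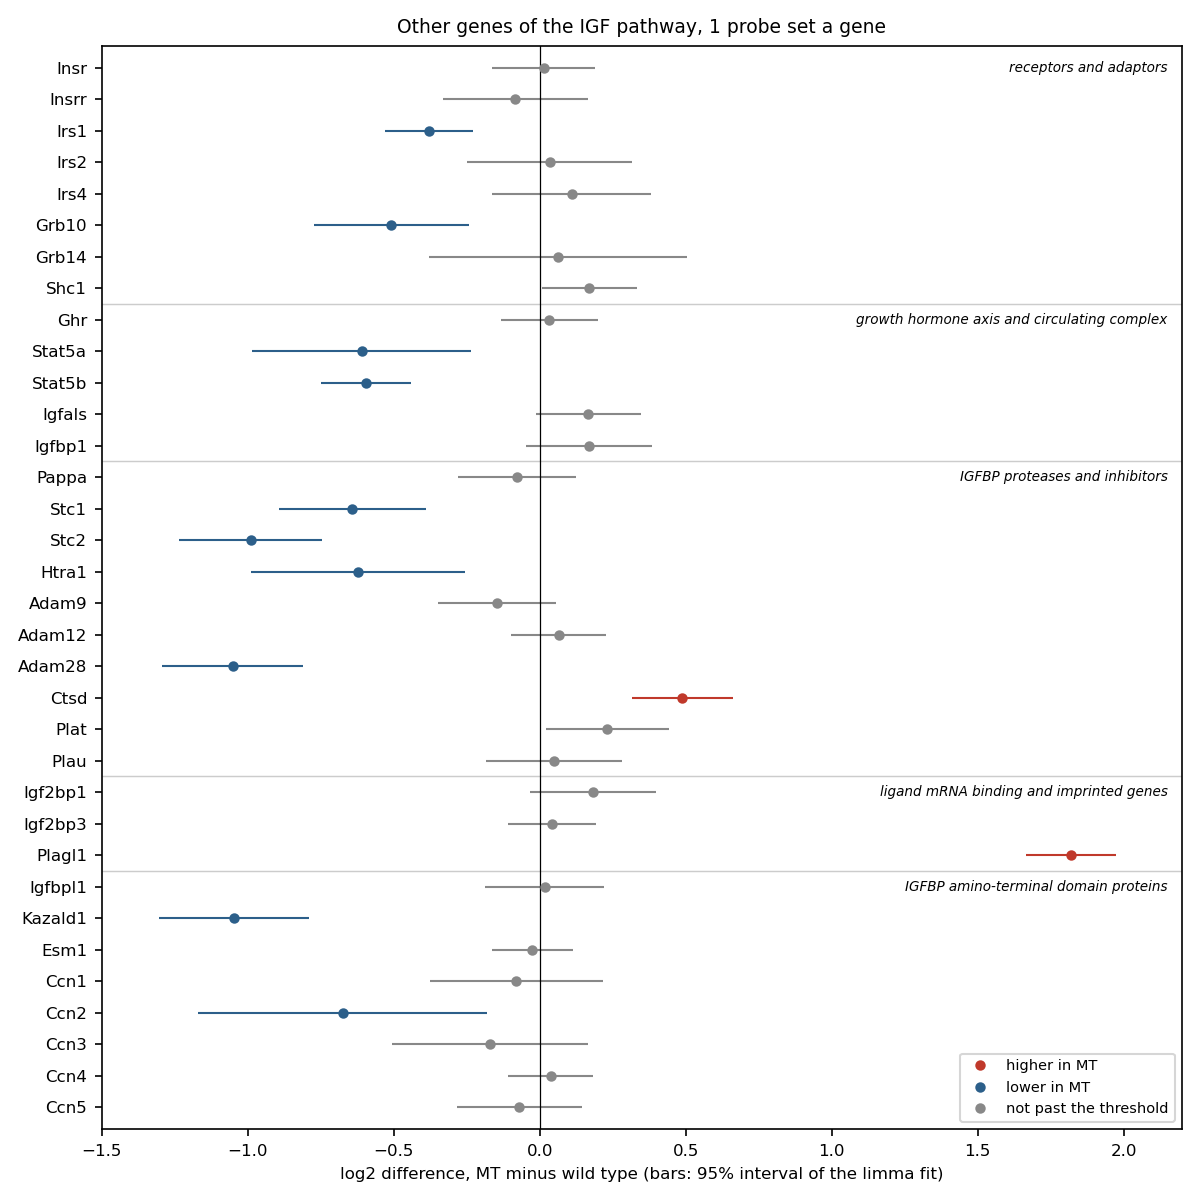
Log2 difference, MT minus wild type, of the 34 measured pathway genes that are not members, 1 probe set each, grouped by role, with 95% intervals of the limma fit. Blue points are the 10 lower in MT, red points the 2 higher, and grey points the 22 that did not pass.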

How the data were processed

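Total RNA of ventral prostate was hybridised to 8 Affymetrix arrays. The deposited values are log2 levels per probe set, made with RMA per the submitters' processing notes, with the version not given in the sources used. RMA subtracts background and quantile-normalises, so a global change in RNA content would not show. Of 22690 probe sets, 64 controls were left out and 22626 were tested. The platform annotation gave 1 symbol to 20380, several to 691 and none to 1555. The members and gene lists were chosen with earlier results of these data known. MT was compared with wild type in limma 3.58.1 (R 4.3.3), with moderated variances and Benjamini-Hochberg adjustment over all probe sets. Genes that are not members are represented by the probe set with the highest mean. Every member probe set is named, pathway genes are named where they passed or by role, and marker genes as the 2 of a list with the highest mean, with exceptions named where they occur. Differences between pairs of members and the subtraction of stromal lists were chosen after values were seen and are given without a test. Arrays give no counts, so their number limits the precision. On simulated data with 22626 probe sets, of which 200 were changed, 67.6% of log2 changes of 0.5, 95.8% of 1 and 99.7% of 2 were recovered for MT against wild type. Far more probe sets, 8552, passed in the real data, and the simulated noise was independent between arrays. These rates are therefore not estimates for the real comparison. Alternatives covered the variance prior, array weights, scaling, a filter on dim probe sets, the probe set rule, the replicate block and arrays left out. Promoters are RefSeq's, read with pandas 2.3.3 in Python 3.11.15, and figures were drawn with matplotlib 3.10.9.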

Additional observations from a re-analysis of the deposited data

Results flagged for a closer look

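Of 46 groups of 4 arrays of the family's probe sets examined, 3 held an array set apart from the others by more than Dixon's 95% critical value, and chance alone flags about 1 in 20. For Igf1 probe set 1419519_at, wild-type array 2 was low at 7.56, with the nearest wild-type array at 8.13. For the dim Igfbp7 probe set 1423585_at, MT array 4 was low at 4.57, with the nearest MT array at 4.66. On the same Igfbp7 probe set, wild-type array 4 was high at 4.66, with the nearest wild-type array at 4.61.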

How the results depend on the processing

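All 3 Igf1 probe sets, Igf1r 1426565_at, Igfbp6 and 4 of the 5 lower Igfbp4 probe sets kept their direction and passed under every alternative run that included them. Taking 1 probe set a gene, 5 of 10 family members were lower and 5088 genes passed, higher or lower. Averaging a gene's probe sets gave 5 of 10 and 5112. In the main fit, 20.7% of genes were lower at 1 probe set each. Unique-type probe sets alone gave 4 lower in the family, 6 lower and 0 higher in the pathway, and 5402 in all, against 11, 10, 2 and 8552. Fewer features are tested there by construction. Every probe set of Igfbp2, Igfbp4 and Igfbp5 is left out, as are Igf1 1452014_a_at and those of Plagl1 and Ctsd. The change from 11 to 4 in the family thus comes from probe sets left out, not from calls lost. No family probe set was higher under any alternative. Leaving out 1 array at a time gave 7355 to 8377 in all, 11 to 12 lower in the family, 9 to 10 lower and 2 to 4 higher in the pathway (4 without wild-type array 3). Signs turned only among results that had not passed. Averaged over probe sets, Igf2 was -0.021, Igf2r -0.075, Insr -0.025 and Ghr -0.046. With 1 array left out, Igf2 ran from -0.020 to 0.051, Igf2r from -0.0027 to 0.059, Igfbp3 from -0.27 to 0.0030, Igfbp5 1422313_a_at from -0.13 to 0.091, Insr from -0.025 to 0.079 and Ghr from -0.0096 to 0.082. Dropping both wild-type array 4 and MT array 2, chosen after seeing the data, left 6839 in all, 9 lower in the family and 7 in the pathway. Igf2r was then -0.019, Igfbp5 1422313_a_at 0.039 and Insr -0.048, and Igfbp2 (-1.19), Igfbp4 1437406_x_at (-0.40), Stat5a (-0.51), Htra1 (-0.43) and Ccn2 (-0.48, adjusted p = 0.179) no longer passed. The cause was not tested. Ccn2 also failed with a trended, robust prior (adjusted p = 0.0662). With the replicate number as a block, 11 family probe sets were lower, 0 higher, 10 pathway genes lower, 2 higher and 8633 passed in all. Arrays sharing a number correlated at 0.08, 0.16, 0.08 and 0.13 in their deviations, and 8 of 8 correlated best with their own number, a hint from the data and not the design. Probe sets near the bacterial controls, such as Igf2 1415931_at, limit what can be read.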
